A study of Mus musculus with 6 samples.

Results

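The glucocorticoid receptor gene Nr3c1, the steroid-activating enzyme gene Hsd11b1 and 8 genes that glucocorticoid hormone is known to induce were compared between liver of Sec15 KO mice and of WT mice. The 8 response genes were Fkbp5, Tsc22d3, Ddit4, Sgk1, Dusp1, Zbtb16, Klf9 and Errfi1. The 10 genes were chosen by symbol, through the transcript accession of each probe, from 20659 genes with a symbol on the array. They are read by 11 of 39429 non-control probes, with 2 probes for Nr3c1 and 1 for each of the others, and all 11 were well above background on all 6 arrays.

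Both groups were untreated males of 6 weeks, with 3 samples each, and total RNA of liver tissue was hybridised to 1 one-colour (Cy3) Agilent array per sample. Sec15 is a subunit of the exocyst, a complex that docks secretory vesicles at the cell surface, and the series asks how its loss bears on the traffic of STAT3 and on blood stem cells. The labels do not say which of the mouse Sec15 genes, Exoc6 or Exoc6b, was deleted, in which cells, or on which strain. They number the samples but do not tie each to an animal of its own, so the p-values rest on a spread that may in part be technical.

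Nr3c1 encodes the receptor that binds corticosterone, the main glucocorticoid of mice. Without hormone the receptor is held in the cytosol by heat shock protein complexes, and with hormone it enters the nucleus and binds response elements near its target genes. In liver it drives the response to fasting and daily stress, including the making of glucose from amino acids, and it dampens inflammatory genes. Hsd11b1 regenerates corticosterone from its inert ketone form inside the cell. Fkbp5 and Tsc22d3 are among the targets most often used as a readout of the hormone.

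The promoters are shown for the 4 response genes that were called higher with the largest differences among the members. They are the 250 bases before a transcription start in RefSeq (GRCm38.p6), written 5′ to 3′ on the strand of the gene. Capitals mark matches, on either strand, to the palindromic glucocorticoid response element GNACANNNTGTNC, its single arm AGAACA and the clock E-box CACGTG. The table held 16 windows for 8 of the 10 genes, and the Sgk1 and Tsc22d3 windows shown, of 6 and 3, were picked because they hold a match.
Ddit4, chr10:59951771-59952020, minus strand: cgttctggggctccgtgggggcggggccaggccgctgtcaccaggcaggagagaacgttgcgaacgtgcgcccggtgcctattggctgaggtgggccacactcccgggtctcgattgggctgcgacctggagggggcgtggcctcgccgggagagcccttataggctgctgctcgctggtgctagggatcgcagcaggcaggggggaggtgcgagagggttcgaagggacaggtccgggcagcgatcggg
Fkbp5, chr17:28486150-28486399, minus strand: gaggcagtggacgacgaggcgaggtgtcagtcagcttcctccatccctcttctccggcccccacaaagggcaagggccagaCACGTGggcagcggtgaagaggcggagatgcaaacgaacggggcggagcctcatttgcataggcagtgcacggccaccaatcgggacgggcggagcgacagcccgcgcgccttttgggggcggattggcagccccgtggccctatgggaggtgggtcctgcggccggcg
Sgk1, chr10:21993640-21993889, plus strand: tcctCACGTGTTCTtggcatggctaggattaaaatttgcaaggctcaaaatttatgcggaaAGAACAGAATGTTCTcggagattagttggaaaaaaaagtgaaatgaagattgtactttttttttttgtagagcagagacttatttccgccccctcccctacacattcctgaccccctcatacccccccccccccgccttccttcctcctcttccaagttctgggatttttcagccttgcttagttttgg
Tsc22d3, chrX:140600523-140600772, minus strand: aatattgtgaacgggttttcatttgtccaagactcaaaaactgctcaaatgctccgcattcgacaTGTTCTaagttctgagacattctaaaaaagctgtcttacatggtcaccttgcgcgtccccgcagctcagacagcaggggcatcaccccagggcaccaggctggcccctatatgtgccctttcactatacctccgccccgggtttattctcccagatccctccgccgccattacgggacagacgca
The Sgk1 window holds the palindrome GAACAGAATGTTC, which begins 188 bases before the start. Single arms begin 189 and 180 bases before the start and overlap it, and another, 242 bases before, overlaps the E-box that begins at 246. The palindrome occurs in 0.475% of the 32851 windows of 300 bases in the table, and among the members only in this window. The single arm occurs in 19% of all windows and in 4 of the 16 members' windows, 3 of Sgk1 and 1 of Tsc22d3, where it begins 185 bases before the start. The E-box occurs in 7.15% of all windows and in 3 of the 16, of Sgk1, Dusp1 and Fkbp5, and in Fkbp5 it begins 169 bases before the start. The Ddit4 window holds none of these letters. A match is a run of letters and was not measured as a binding site here.

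Values are log2 signals relative to the 75th percentile of each array, so a difference of 1 is 2-fold. Levels of different probes are not compared as amounts of RNA. The share of probes well above background was 69.9%, 67.3% and 70.3% in WT replicates 1 to 3 and lower in KO, at 65.3%, 64.8% and 65.4%. The part of this gap in the differences was not tested. No array had a saturated spot. By scan time the 3 WT arrays and KO replicate 2 form a first set of 4, and KO replicates 1 and 3 a second set of 2. A difference given below with scan time as a block is therefore that of KO replicate 2 from the WT mean. KO replicates 1 and 3 add only to the residual spread of that fit. Replicate 3 stood apart in both groups. It lay between the other 2 arrays of its group for 65.8% of the 27024 probes tested in WT and for 58.7% in KO, against 12.1% to 29.2% for the other arrays. For the members this held for 10 of 11 probes in WT and 9 of 11 in KO. The median distance of a probe from the mean of the other 2 arrays was 0.06 for WT replicate 3 and 0.12 for KO replicate 3, and 0.18 to 0.27 for the other arrays. Whether replicate 3 is a sample independent of the other 2, for instance not a pool of them, was not tested, and every SD, n = 3 and p-value given here takes it as one. With replicate 3 of both groups left out, limma called 0 of 27024 probes (4334 at an unadjusted p under 0.05), and with the first scan alone 0 (7833 unadjusted). Each member called below thus lost its call in both, while the 11 differences lay between -0.23 and 2.67 without replicate 3 and between -0.19 and 2.73 with all arrays.

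Of the 11 probes, 7 were higher in KO liver and 0 lower by limma with Benjamini-Hochberg adjustment over all probes, at a threshold of 0.05. Among all 27024 probes 17.0% were higher and 11.6% lower. The 7 probes read Ddit4, Fkbp5, Sgk1, Tsc22d3, Hsd11b1, Klf9 and, on its brighter probe, Nr3c1. The 3 KO values lay above the 3 WT values for 8 probes and below them for 0, against 30.6% and 19.6% of all probes. The median difference of the 11 probes was 0.61, and that of all probes 0.08. The members were chosen with earlier results of these data known. Their probes were bright, with a median signal at percentile 90.4 of the probes tested. The part of brightness in the comparisons with all probes was not tested. Differences of at least 2-fold, whether or not they passed, were upward for 4 of the 11 (36.4%) and 2.83% of all probes, and downward for 0 and 8.19%. In bulk tissue, more cells that express a gene and more RNA per cell cannot be told apart.

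**Figure D1:**
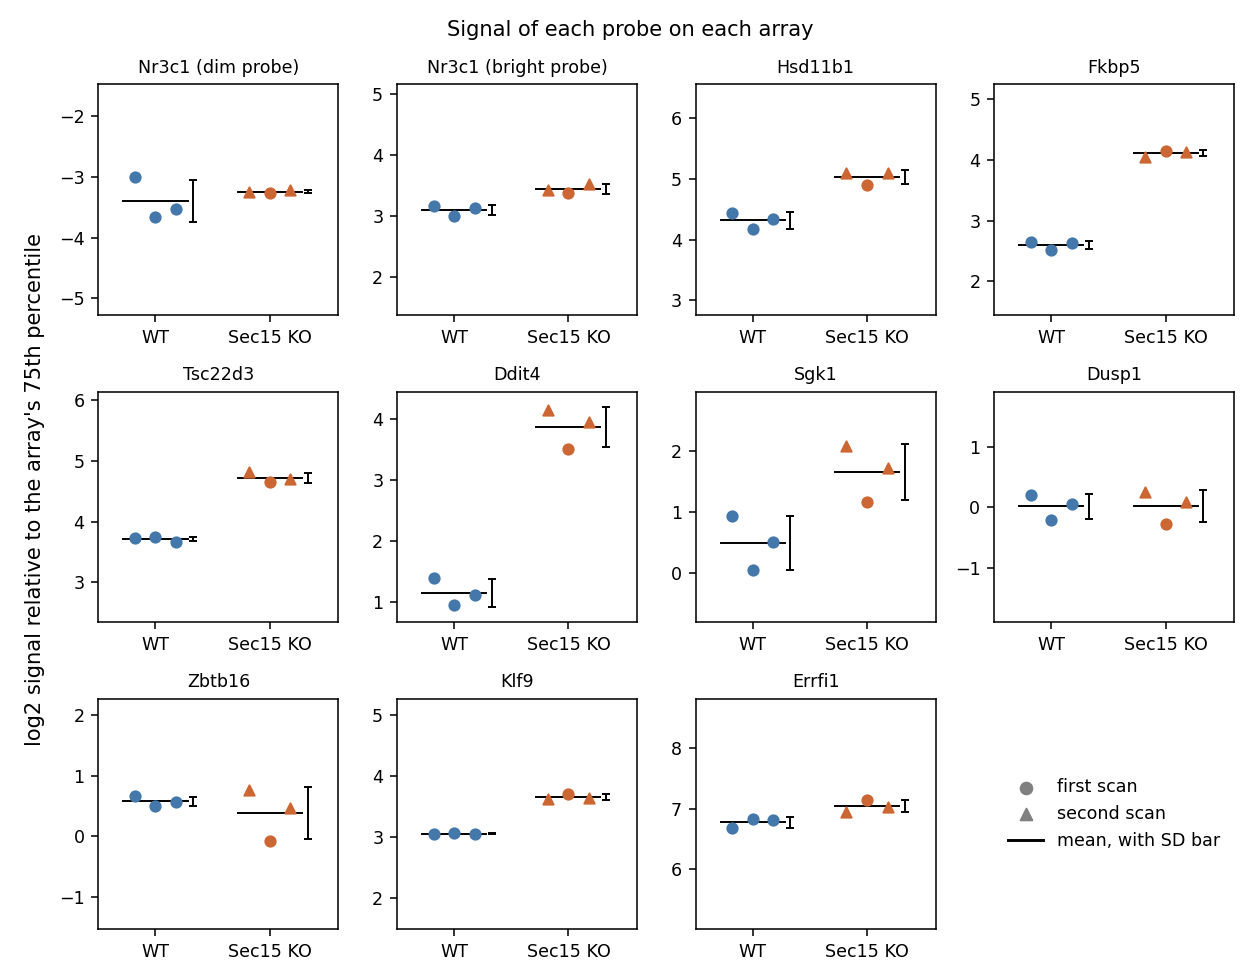
Log2 signal relative to the 75th percentile of the array (vertical axis, the same span in every panel) of the 11 probes on each of the 3 WT and 3 Sec15 KO arrays, in the order of the replicate numbers, with circles for the first scan time and triangles for the second. Lines are group means and bars 1 SD; the 3 KO points lie above the WT points for 8 probes, and those of Dusp1, Zbtb16 and the dim Nr3c1 probe overlap them.

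The receptor itself differed little. The brighter Nr3c1 probe, A_55_P1967885, read 3.16, 3.00 and 3.13 in WT replicates 1 to 3 and 3.42, 3.37 and 3.53 in KO. All KO values were above all WT values, and the mean rose from 3.10 ± 0.08 to 3.44 ± 0.08 (SD, n = 3), a difference of 0.35 (SE 0.10, 95% confidence interval 0.10 to 0.59, 1.27-fold, limma adjusted p = 0.0472). This call was the least stable of the 7, since it was kept in 8 of 22 alternatives, and after cyclic loess the difference was 0.08 (adjusted p = 0.5075) and after quantile normalisation 0.17 (adjusted p = 0.234). With scan time as a block the adjusted p was 0.186. The second Nr3c1 probe, A_52_P254174, was dim, with processed intensities of 22.0 to 38.9. It read -3.01, -3.67 and -3.53 in WT and -3.25, -3.27 and -3.21 in KO, groups that overlap, and differed by 0.16 (SE 0.18, interval -0.29 to 0.61, adjusted p = 0.522).

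Hsd11b1, which makes active hormone within the hepatocyte, was higher in KO liver. Its probe is printed 10 times on each array, and the SD between the 9 or 10 spots used was 0.06 to 0.09. The spot means were 4.45, 4.17 and 4.35 in WT and 5.10, 4.90 and 5.09 in KO. No KO array overlapped the WT arrays, and the difference of 0.71 (SE 0.12, interval 0.42 to 1.00, 1.63-fold, adjusted p = 0.0135) was larger than the spread between spots or between arrays. KO replicate 2, scanned with the WT arrays, lay 0.57 above the WT mean. The call was lost with scan time as a block (adjusted p = 0.066), without WT replicate 3 (0.0701) and without KO replicate 3 (0.0674).

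Fkbp5 encodes a co-chaperone that binds the Hsp90 complex of the receptor and lowers its affinity for hormone, and is itself induced by the receptor. It read 2.64, 2.52 and 2.63 in WT and 4.05, 4.14 and 4.14 in KO. The arrays within each group were close together and far from the other group. Fkbp5 rose from 2.60 ± 0.07 to 4.11 ± 0.05 (SD, n = 3), by 1.51 (SE 0.09, interval 1.29 to 1.74, 2.85-fold, adjusted p = 0.00285). Its rise ranked 182 among the 27024 probes.

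Tsc22d3, also called GILZ, encodes a leucine zipper protein that restrains inflammatory transcription factors. It read 3.74, 3.74 and 3.67 in WT and 4.82, 4.66 and 4.70 in KO. All KO arrays were above all WT arrays by more than the spread in either group, and the difference was 1.01 (SE 0.09, interval 0.78 to 1.24, 2.01-fold, adjusted p = 0.0061). For KO replicate 2 alone it was 0.94.

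Ddit4, or REDD1, encodes an inhibitor of the growth kinase complex mTORC1 and is induced by several stresses besides the hormone. It had the largest difference of the members. It read 1.39, 0.94 and 1.11 in WT and 4.15, 3.51 and 3.96 in KO. The lowest KO value was far above the highest WT value, and the mean rose from 1.15 ± 0.23 to 3.87 ± 0.33 (SD, n = 3). The difference was 2.73 (SE 0.21, interval 2.22 to 3.23, 6.61-fold, adjusted p = 0.00454), and its rise ranked 36 among all probes. For KO replicate 2 it was 2.36.

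Fkbp5, Tsc22d3 and Ddit4 kept their calls in 20 of 22 alternatives, all except the 2 that called no probe at all. With scan time as a block, which sets KO replicate 2 alone against the WT mean, their differences were 1.54, 0.94 and 2.36.

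Sgk1 encodes a serum- and glucocorticoid-induced kinase that regulates ion channels and transporters. It read 0.94, 0.05 and 0.50 in WT and 2.08, 1.17 and 1.73 in KO. The groups did not overlap, but the lowest KO value, of replicate 2, was close to the highest WT value, and the SD was 0.44 in WT and 0.46 in KO. The difference was 1.16 (SE 0.31, interval 0.40 to 1.93, 2.24-fold, adjusted p = 0.04). It was 0.67 with scan time as a block (adjusted p = 0.2575), and the call was also lost after cyclic loess (adjusted p = 0.0556), with no filter on dim probes, and when WT replicate 2 or 3 or KO replicate 1 or 3 was left out (adjusted p of 0.106 to 0.125). In both groups replicate 1 was highest and replicate 2 lowest, and with the replicate number as a block the SE was 0.09 (adjusted p = 0.0145).

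Klf9, a zinc finger repressor of transcription with a daily rhythm, varied little within each group. It read 3.05, 3.07 and 3.05 in WT and 3.63, 3.71 and 3.64 in KO. It rose by 0.61 (SE 0.09, interval 0.40 to 0.81, 1.52-fold, adjusted p = 0.00967) without any overlap. After cyclic loess the difference was 0.34 (adjusted p = 0.0521), and the call was lost without WT replicate 3 (0.0644) or KO replicate 3 (0.0553) as well.

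Errfi1, or MIG6, encodes an inhibitor of the epidermal growth factor receptor. It read 6.68, 6.83 and 6.81 in WT and 6.95, 7.15 and 7.03 in KO. All KO values were above all WT values, but the difference of 0.27 (SE 0.10, interval 0.02 to 0.52, adjusted p = 0.0972) did not pass the test. It passed with median centring (adjusted p = 0.0427) and with trend and robust variance (0.0449), with array weights (0.00421) and with REML array weights that did not converge, and was -0.02 after cyclic loess and 0.02 after quantile normalisation.

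Dusp1 and Zbtb16 did not pass the test in KO liver. Dusp1, a phosphatase that inactivates MAP kinases, read 0.21, -0.20 and 0.06 in WT and 0.25, -0.27 and 0.08 in KO. The groups overlap, with KO replicate 1 a little above the WT range and KO replicate 2 a little below it. The difference was 0.00 (SE 0.18, interval -0.44 to 0.44, adjusted p = 0.997), so a change of up to 0.44 in either direction lies inside the interval. Zbtb16, or PLZF, a zinc finger repressor, read 0.66, 0.51 and 0.57 in WT and 0.76, -0.07 and 0.47 in KO. KO replicate 2 was below the WT range and KO replicate 1 above it, and the difference was -0.19 (SE 0.22, interval -0.72 to 0.34, adjusted p = 0.522). With scan time as a block it was -0.65 (adjusted p = 0.0635).

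**Figure D2:**
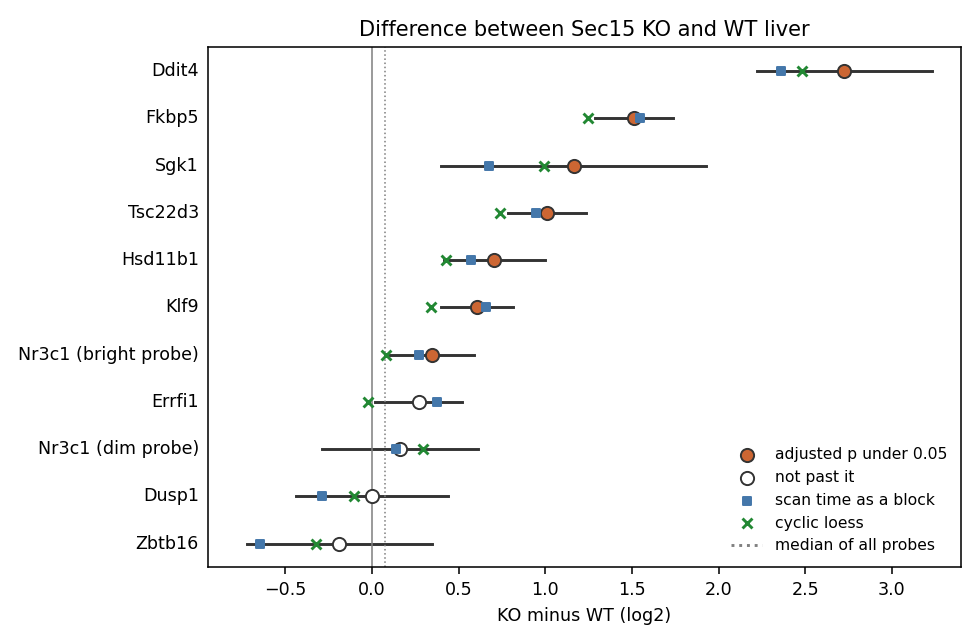
Difference between KO and WT (horizontal axis, log2) for each probe, with the 95% confidence interval as a bar and a filled circle where the adjusted p is under 0.05. Squares give the difference with scan time as a block, crosses that after cyclic loess, and the dotted line the median of all probes (0.08); Ddit4, Fkbp5 and Tsc22d3 lie far above it under all 3, and after cyclic loess the brighter Nr3c1 probe reads 0.08 and Errfi1 -0.02.

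The members differed in size and in how firmly they were measured. The median residual SD of the 11 probes was 0.13, against 0.20 for all probes. The 11 probes were bright, with a median signal at percentile 90.4 of the probes tested, and the part of brightness in this gap was not tested. Within KO, the mean of replicates 1 and 3 was above replicate 2 by 0.74 for Sgk1, 0.69 for Zbtb16, 0.54 for Ddit4 and 0.44 for Dusp1. For the other members it differed from replicate 2 by -0.16 (Errfi1) to 0.20 (Hsd11b1). Replicate 2 was also the lowest WT array for these 4 genes, and the WT arrays share 1 scan. It read 0.05 for Sgk1 (0.94 and 0.50 in WT replicates 1 and 3) and 0.94 for Ddit4 (1.39 and 1.11). For Dusp1 it read -0.20 (0.21 and 0.06) and for Zbtb16 0.51 (0.66 and 0.57). WT replicate 2 was lowest in its group for 8 of the 11 member probes and for 47.5% of all probes. KO replicate 2 was lowest in KO for 8 of the 11 and for 46.4% of all probes. The part of scan time in the gaps within KO was not tested, since only 1 KO array shares the scan of the WT arrays. That array lay above the WT range for 8 of the 11 probes and below it for 2, Dusp1 and Zbtb16, where 43.8% and 30.4% of all probes did so.

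With scan time as a block, 4 member probes were higher (Fkbp5, Tsc22d3, Ddit4 and Klf9) and 0 lower, beside 4.85% and 4.48% of all probes. After cyclic loess, 4 were higher (Hsd11b1, Fkbp5, Tsc22d3 and Ddit4) and 0 lower, beside 10.9% and 11.9% of all probes. Every member probe then had a lower difference, except the dim Nr3c1 probe, which went from 0.16 to 0.30. Hsd11b1 went from 0.71 to 0.43, Fkbp5 from 1.51 to 1.25 and Tsc22d3 from 1.01 to 0.74. The median of all probes went from 0.08 to -0.0008. Without WT replicate 3, and likewise without KO replicate 3, 3 were higher (Fkbp5, Tsc22d3 and Ddit4), beside 0.755% and 1.80% of all probes. Without replicate 3 of both groups the count was 0, beside 0.00%. Scaling also moved the split over all probes, from 4598 higher and 3144 lower to 5945 and 2534 with median centring, which shifted the median of all probes from 0.08 to 0.19, and to 2947 and 3217 after cyclic loess.

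**Figure D3:**
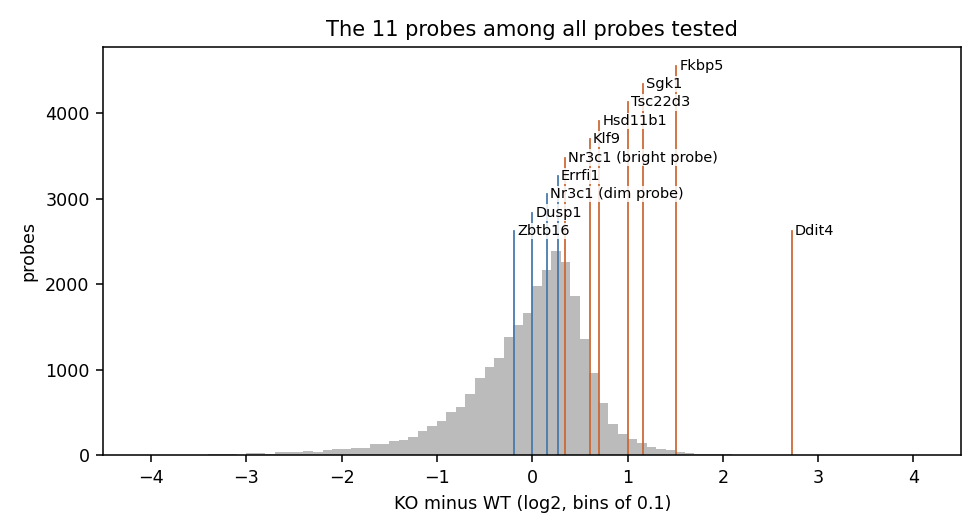
Number of probes (vertical axis) by their difference between KO and WT (horizontal axis, log2, in bins of 0.1) for all 27024 probes tested in grey, with a line at each of the 11 member probes, orange where it passed the test as higher and blue where it did not pass. Most probes lie near 0 with a longer tail of falls, Ddit4 at 2.73 lies in the sparse right tail, and Dusp1 and Zbtb16 lie in the bulk; the height of the lines carries no value.

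**Figure D4:**
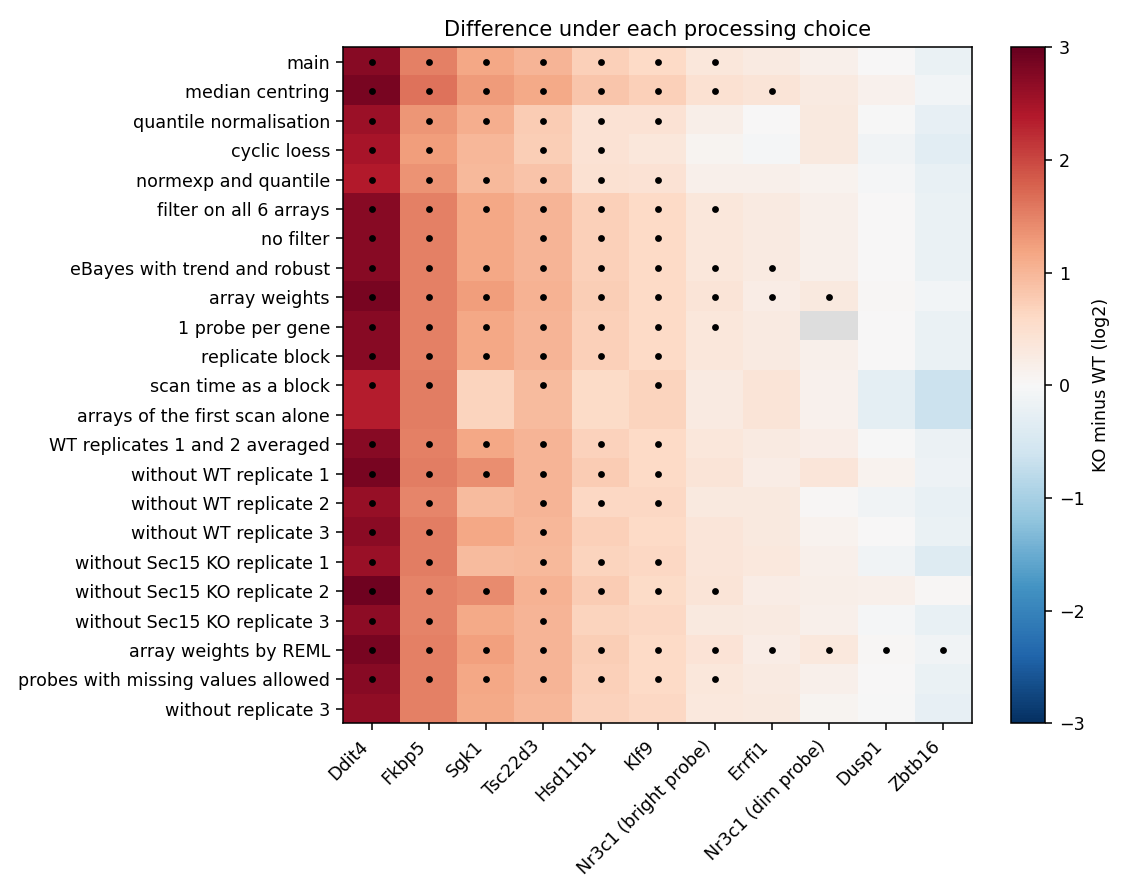
Difference between KO and WT (colour, log2) of each member probe in columns, with all arrays in the standard processing in the top row and under each alternative in the rows beneath, and a dot where the adjusted p is under 0.05; the last row leaves out replicate 3 of both groups and grey marks a probe not fitted. The colours of Ddit4, Fkbp5 and Tsc22d3 hardly vary, the dots vanish with the first scan alone and without replicate 3, and array weights by REML, which did not converge, put dots everywhere.

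Other genes of the pathway were read from lists, and Klf15, Klf6, Fkbp4 and Nr3c2 each stand in more than 1 of them. Each gene was read by its brightest probe, so that it counts once within a list. By that measure 18.7% of 15544 genes were higher and 10.7% lower, with a median difference of 0.11. Of 20 receptor chaperones and coregulators, 4 were higher and 0 lower, with a median of 0.10. The 4 were transcriptional coactivators: Ppargc1a, which drives gluconeogenic genes (1.54, SE 0.15, limma adjusted p = 0.00649), Crebbp (0.63), Ncoa2 (0.53) and Ep300 (0.68). The chaperones Fkbp4, which opposes Fkbp5 at the receptor (-0.58, adjusted p = 0.0797), and Stip1 (-0.42, 0.108) did not pass. Probes of 1 gene could disagree: the brightest Med1 probe differed by -0.28 and did not pass, while its other 3 rose by 0.58 to 0.84, a gene named after its values were seen.

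Of 11 genes of corticosteroid binding and metabolism, 3 were higher and 0 lower, with a median of 0.32, or 0.08 for KO replicate 2 alone. They were Cyp3a13 (0.83, adjusted p = 0.011; 0.44 on its second probe, not called), Cyp3a11 (0.85) and Akr1d1 (1.05), a reductase that inactivates steroids. Srd5a1, another such reductase, differed by 0.40 (adjusted p = 0.0538) and Srd5a3 by -0.41 (0.313).

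Of 34 other genes that glucocorticoid is known to induce, 20 were higher and 2 lower, and their median was 0.66 with all arrays and 0.56 for KO replicate 2 alone. The list was chosen with earlier results of these data known, so its counts are not independent of them. Mfsd2a, a lipid transporter, rose by 2.83 (SE 0.15, 7.13-fold, adjusted p = 0.00218), and Lpin1, a phosphatidic acid phosphatase, by 2.92 (SE 0.21, 7.56-fold). The cell cycle inhibitor Cdkn1a rose by 2.00 on its brightest probe and its second probe differed by 0.13. The transcription factor Cebpd rose by 1.45. Bcl6, a repressor (0.82, adjusted p = 0.0578), and Pck1, the gluconeogenic enzyme (0.49, adjusted p = 0.109), did not pass. The 2 that fell, named after their values were seen, were Lcn2, an iron carrier of the acute phase (-1.74), and Fam107a (-1.31, with 0.24 on its second probe). The highest value, likewise named after it was seen, was that of Mt2, a metallothionein, at 4.80. Several of these genes, Mt2 and Lcn2 among them, also answer to other signals. The count of rises was 13 with scan time as a block, 4 without WT replicate 3, 6 without KO replicate 3 and 0 without both, with a median of 0.67 in the last.

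Of 12 genes that glucocorticoid is known to repress, 2 were higher and 2 lower, with a median of -0.23. The adhesion molecule Vcam1 rose by 2.38 (5.22-fold, adjusted p = 0.00454; 2.45 on its second probe) and the chemokine Ccl5 by 0.84. The cytokine Il1b fell by 1.46 (adjusted p = 0.0141). Ifng was called lower (adjusted p = 0.00584) but was not well above background on any KO array. It was at least 2.09-fold lower, a bound set against the lowest signal well above background on each KO array. The adjusted p belongs to the fitted difference and does not test this bound. Tnf (-0.61, adjusted p = 0.0739) and Mmp9 (-0.44, 0.118) did not pass.

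Relatives of the members and immediate early genes were read as well. Of 23 relatives, 5 were higher and 2 lower, with a median of 0.21 (0.05 for KO replicate 2 alone). Klf15 (0.50), Klf6 (0.67), the phosphatase Dusp16 (0.59) and Fkbp2 (0.71) had the smallest p among the rises, and Fkbp1a (0.59) was higher on its brightest probe, with -0.13 on its second. Tsc22d1 fell by 0.92 and Fkbp8 by 0.31, which with Fkbp1a were named after their values were seen, and Klf10 (0.67, adjusted p = 0.073) did not pass. Sgk3, whose kinase resembles that of Sgk1, differed by 0.21 (adjusted p = 0.191) and Sgk2 by -0.17 (0.183), also named after their values were seen. Of 17 immediate early genes, which many stimuli induce within minutes, 1 was higher (Klf6) and 1 lower (Jund, -0.80), with a median of -0.15. Ier5 (-1.49, adjusted p = 0.0542) and Myc (-0.65, 0.456) did not pass.

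**Figure D5:**
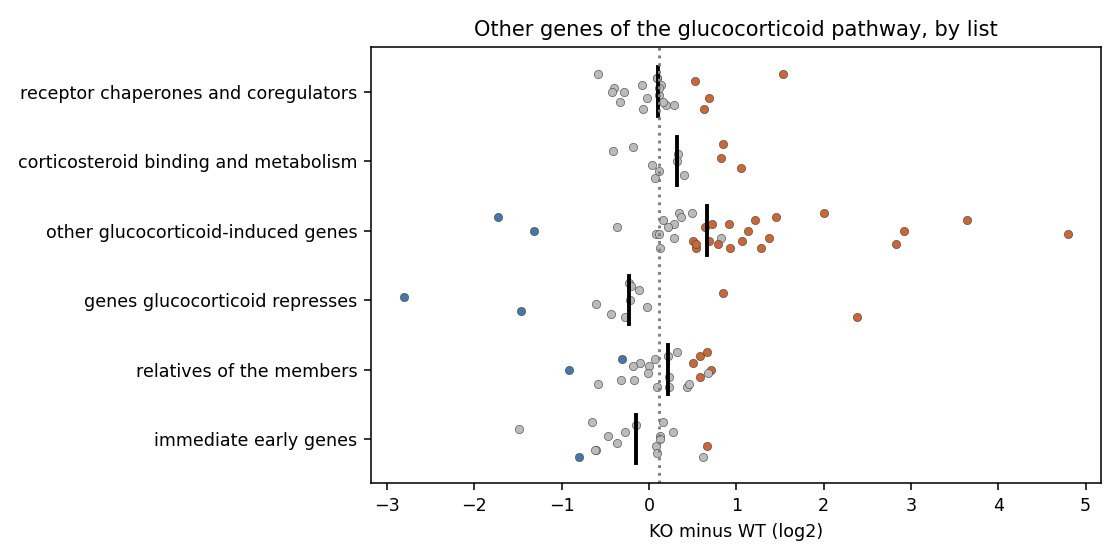
Difference between KO and WT (horizontal axis, log2) of each gene of 6 lists by its brightest probe, orange where higher and blue where lower by the test and grey where not passed, spread vertically for sight only. Black bars are list medians and the dotted line is the median of all 15544 genes (0.11). The induced genes have the highest median, 0.66, and the repressed genes the lowest, -0.23, in lists chosen with earlier results of these data known.

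The tissue and the targeted gene were checked on the same arrays. All 9 hepatocyte markers on the array were well above background on every array, and their summed linear signal, in units of the 75th percentile of each array, was 2547 to 2881 in WT and 2883 to 3350 in KO. Markers of blood and other liver cells moved with the genotype as well. The sum of 9 erythroid markers was 82.96 to 128.1 in WT and 343.8 to 441.5 in KO (5 of 8 tested higher), that of 8 Kupffer cell markers 21.29 to 22.24 and 31.32 to 40.67 (3 of 8 higher), that of 7 endothelial markers 23.25 to 24.46 and 28.42 to 38.06 (3 of 7 higher), and that of 6 neutrophil markers 6.394 to 7.017 and 8.311 to 13.64 (2 of 5 higher). The sum of 7 stellate cell markers was 38.37 to 47.73 and 50.5 to 55.53 (2 of 5 higher, with Des and Reln never above background), and that of 8 lymphocyte markers 40.79 to 42.02 and 23.38 to 27.81 (4 of 8 lower). Bile duct markers gave 0.9958 to 1.464 and 1.228 to 1.583 (1 of 4 lower), pancreas markers 11.69 to 14.27 and 11.32 to 11.74 (1 of 8 higher, 5 lower, with Cela1, Cela2a and Cela3b never above background) and adipocyte markers 0.6008 to 0.8157 and 0.3357 to 0.4014 (2 of 3 lower, with Adipoq and Lep never above background). The part of these cells in the differences of the members was not tested. Of the Sec15 probes, that of Exoc6 was well above background on 1 WT and 0 KO arrays and 1 of Exoc6b on none, while the other Exoc6b probe fell by 0.53 (SE 0.15, adjusted p = 0.0436). Whether these probes lie in the deleted part is not stated, so they check nothing about the labels.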

How the data were processed

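Liver RNA of 3 WT and 3 Sec15 KO samples was read on 1 one-colour array each. The authors deposited the scanner output of Agilent Feature Extraction 11.0.1.1, with intensity per spot and other flags per spot, per the file headers, in which the processed signal is background-subtracted and arrays are not normalised to each other. Outlier spots (178 to 236 of 43020 per array) were left out here, spots of a probe averaged, and log2 signals of the 39429 non-control probes centred on their 75th percentile in each array. Transcript accessions matched 1 symbol for 27234 probes in a RefSeq table of GRCm38.p6, and none for 12195. The 27024 probes well above background on at least 3 arrays were fitted with limma 3.58.1 (lmFit, eBayes) in R 4.3.3, using data.table (version 1.17.8) and jsonlite 2.0.0, and adjusted by Benjamini-Hochberg at 0.05. A value on all 6 arrays was required after a first fit had been seen, and the script was tested on simulated data. The number of arrays limits the precision.

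The members and lists were chosen with earlier results of these data known. Genes named were every member, up to 4 called genes per list with the smallest p, and up to 2 with the largest absolute difference among those not called; others are marked. Promoters were searched in RefSeq windows of 300 bases, 250 before and 50 after a start, for 8 of the 10 members. The alternatives were array scaling, background correction, dim-probe filters, variance model, array weights, 1 probe per gene, replicate block, scan time as a block or the first scan alone, WT replicates 1 and 2 averaged (their deposited names share a number), and each replicate left out. Array weights by REML, missing values allowed, replicate 3 of both groups left out, and the settings for the lists were added after seeing the data.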

Additional observations from a re-analysis of the deposited data

How the results depend on the processing

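No member probe called in one direction was called in the other under any of 22 alternatives. The count of higher member probes was 7 in the standard processing, 8 with median centring and with trend and robust variance, 9 with array weights, 10 with REML array weights, 4 after cyclic loess and with scan time as a block, 0 on the first scan alone and 5 to 7 under the rest, except where a replicate was left out (0 to 7). The count of all called probes was 7742, then 2523 with scan time as a block, 0 on the first scan alone and 0 to 12599 with a replicate left out (353 without WT replicate 3, 998 without KO replicate 3, 2528 without WT replicate 2, 2964 without KO replicate 1, 12599 without KO replicate 2, 0 without replicate 3 of both groups). Array weights gave 21156 calls: limma's default REML weights did not converge (weights of 816.5 for WT replicate 3 and 243.6 for KO replicate 3) and called 26749 probes, 10 members higher and 1, Zbtb16, lower, so the gene-by-gene method was chosen after seeing this. It weighted WT replicate 3 by 12 and KO replicate 3 by 4.38. The labels number the replicates alike in both groups, and same-numbered arrays deviated together with correlations of 0.105, 0.108 and 0.024. The number was not taken as a pairing, though 5 of 6 arrays correlated best with their own number. The arrays ran 1 over 3 over 2 in both groups for 5 of 11 member probes, against 15.4% of all probes. Whether same-numbered arrays share a batch was not tested. With the replicate block 6125 probes were called, 6 of them members. Nr3c1 then had an adjusted p of 0.0698. The SE went from 0.31 to 0.09 for Sgk1 and from 0.21 to 0.10 for Ddit4, and from 0.09 to 0.10 for Fkbp5. With WT replicates 1 and 2 averaged the counts were 6953 and 6.

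The list counts moved both ways in the added settings. With scan time as a block, genes higher and lower numbered 1 and 1 for chaperones and coregulators, 0 and 0 for corticosteroid metabolism, 13 and 0 for other induced genes, 1 and 1 for repressed genes, 1 and 1 for relatives, 0 and 0 for immediate early genes, and 831 and 614 for all genes. After cyclic loess, 3 chaperones and coregulators were higher and 2 lower, 1 gene of corticosteroid metabolism was higher, 3 relatives were higher and 4 lower, and 1858 of all genes were higher. With median centring 22 other induced genes, 7 relatives and 3715 of all genes were higher, and 1 relative and 2 immediate early genes lower. With WT replicate 3, KO replicate 3 or both left out, higher genes numbered 0 to 1 for chaperones, 0 for corticosteroid metabolism, 0 to 6 for induced genes, 0 to 1 for repressed genes (0 to 1 lower), 0 for relatives and for immediate early genes and 0 to 330 for all genes (0 to 239 lower). The causes of these shifts were not tested. Fewer arrays were fitted where a replicate was left out, and the part of that number was not tested either.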
